A study of Mus musculus with 24 samples.

Results

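Bile acid sensing and transport was followed in the colon through 9 genes, namely the receptors Nr1h4 and Gpbar1, the signalling targets Fgf15 and Nr0b2, and the transporters and binding protein Slc10a2, Fabp6, Slc51a, Slc51b and Abcc3. The genes were chosen by name, through the RefSeq accession of each probe, from 45616 gene names on an Agilent mouse expression array. They were measured by 10 probes, 1 for each gene and 2 for Abcc3, on 24 arrays of colon RNA. No rule on their signal was used, but earlier results of these data were known when the members were chosen.

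C57BL/6J mice arrived at 7 weeks of age and underwent ovariectomy (OVX) or a sham operation, and were then given low fat diet (LFD, 10 kcal% fat) or high fat diet (HFD, 45 kcal% fat) for 14 weeks. Every mouse also received the carcinogen azoxymethane (10 mg/kg) and 3 cycles of 1.5% dextran sulfate sodium in the drinking water, which injures the mucosa, and was sacrificed 75 days after azoxymethane. The groups were males (M + LFD and M + HFD) and intact females (F + LFD and F + HFD), all sham-operated, and ovariectomized females (F(OVX) + LFD and F(OVX) + HFD), with 4 arrays each. No mouse was free of carcinogen, so the values describe differences between diets, sexes and surgeries within treated colon, with tumor and non-tumor tissue not separated by the labels. The labels named the tissue as colon without its position, and by the methods the RNA came from distal colon, from what was left of it after a piece near the anus had been fixed. The labels tied the 4 samples of a group to no named animals, so p-values measure the spread between these samples. By the methods, 5 animals per group with a body weight near the average were used.

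Bile acids are made in the liver, secreted into the intestine and largely recovered in the ileum. ASBT (Slc10a2) takes them up across the apical membrane of the enterocyte, the binding protein encoded by Fabp6 carries them inside the cell, and the heterodimer of Slc51a and Slc51b releases them across the basolateral membrane. Inside the cell they activate the nuclear receptor FXR (Nr1h4), which induces Fgf15, Fabp6, Slc51a, Slc51b and the corepressor SHP (Nr0b2), and Fgf15 restrains bile acid synthesis in the liver. The basolateral pump MRP3 (Abcc3) is abundant in the colon, where uptake through Slc10a2 is low.

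FXR binds inverted repeats of a short motif, and the promoters of the release and binding genes are shown because Slc51a, Slc51b and Fabp6 all had their highest signal on the same array, M + LFD replicate 2. Slc10a2, not among the genes named above as induced by FXR, also had its highest signal there (10.88), so the shared array was not particular to those genes. RefSeq promoter windows of the mouse assembly GRCm38.p6 were at hand for 7 of the 9 genes. The full repeat AGGTCANTGACCT, which reads alike on both strands, was in none of the 7 windows and in 3 of all 32851 windows (0.00913%). A looser form, GGTNANTNACC (also alike on both strands, contained in the full repeat, and chosen after the sequences had been seen), was in 86 of 32851 windows (0.262%). Among the 7 it was found in Slc51b, 186 bases before the start of the gene, and at 2 places in Fabp6, 221 and 141 bases before the start. The upstream part of each window is given from 5′ to 3′ on the strand of the gene, with the matches in capitals, and Slc51a is given as the partner of Slc51b without a match. A match describes the letters only, and binding was not measured.
Slc51b (chr9:65422774-65423023, minus strand): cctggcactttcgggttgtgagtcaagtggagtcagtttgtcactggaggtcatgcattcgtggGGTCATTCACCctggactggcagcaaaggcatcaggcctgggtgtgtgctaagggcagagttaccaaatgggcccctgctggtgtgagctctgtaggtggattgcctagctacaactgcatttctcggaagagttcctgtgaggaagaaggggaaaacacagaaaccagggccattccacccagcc
Fabp6 (chr11:43601563-43601812, minus strand): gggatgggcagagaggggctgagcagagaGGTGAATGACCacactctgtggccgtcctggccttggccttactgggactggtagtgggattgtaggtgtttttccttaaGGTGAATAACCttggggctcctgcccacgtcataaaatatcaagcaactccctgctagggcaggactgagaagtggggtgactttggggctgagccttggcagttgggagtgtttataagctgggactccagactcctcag
Slc51a (chr16:32487880-32488129, minus strand): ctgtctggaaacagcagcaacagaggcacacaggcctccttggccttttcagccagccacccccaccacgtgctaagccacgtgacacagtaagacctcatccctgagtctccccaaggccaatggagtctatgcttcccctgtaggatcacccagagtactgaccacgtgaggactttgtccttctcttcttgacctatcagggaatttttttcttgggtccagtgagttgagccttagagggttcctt

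Between 40.5% and 61.9% of the probes of an array were well above background by the flag of the scanner software, and no spot was saturated. Defining markers of the posterior colon were not seen on every array. In M + LFD replicates 1 and 2 the log2 signal of Hoxb13 was 2.18 and 5.04, whereas it lay between 12.58 and 14.79 on the other 22 arrays. Hoxb6, expressed further forward in the gut, was at 12.71 and 11.2 in these replicates and between 4.47 and 8.35 elsewhere. Of the other anterior genes, Hoxb3, Hoxb4 and Hoxb5 were above their ranges elsewhere in both replicates. Hoxa4 (4.47 and 4.83, elsewhere 4.74 to 6.9) and Hoxa5 (6.81 and 7.61, elsewhere 7.23 to 8.79) were not. Hoxc6 was above its range only in replicate 1, Hoxc4 only in replicate 2 and Hoxc5 in neither. Fabp2, an enterocyte fatty acid binding protein, was at 15.98 and 16.05, above its range of 10.49 to 15.4 on the other arrays. Of 11 small intestinal enterocyte markers, 7 were well above background in replicate 1 and 10 in replicate 2, against 3 to 6 on the other arrays. Apoa4, Apoa1 and Fabp1 were among those of replicate 2 (7.79, 6.35 and 8.71), and replicate 1 had only Fabp1 (5.93) of these 3. Slc2a2 was well above background on no array. The region and the cells sampled in these mice cannot be told apart from the diet of the M + LFD group, and results that rest on male arrays are therefore set beside their values without both replicates. In colon RNA, fewer cells of a type and less RNA per cell cannot be told apart.

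**Figure D1:**
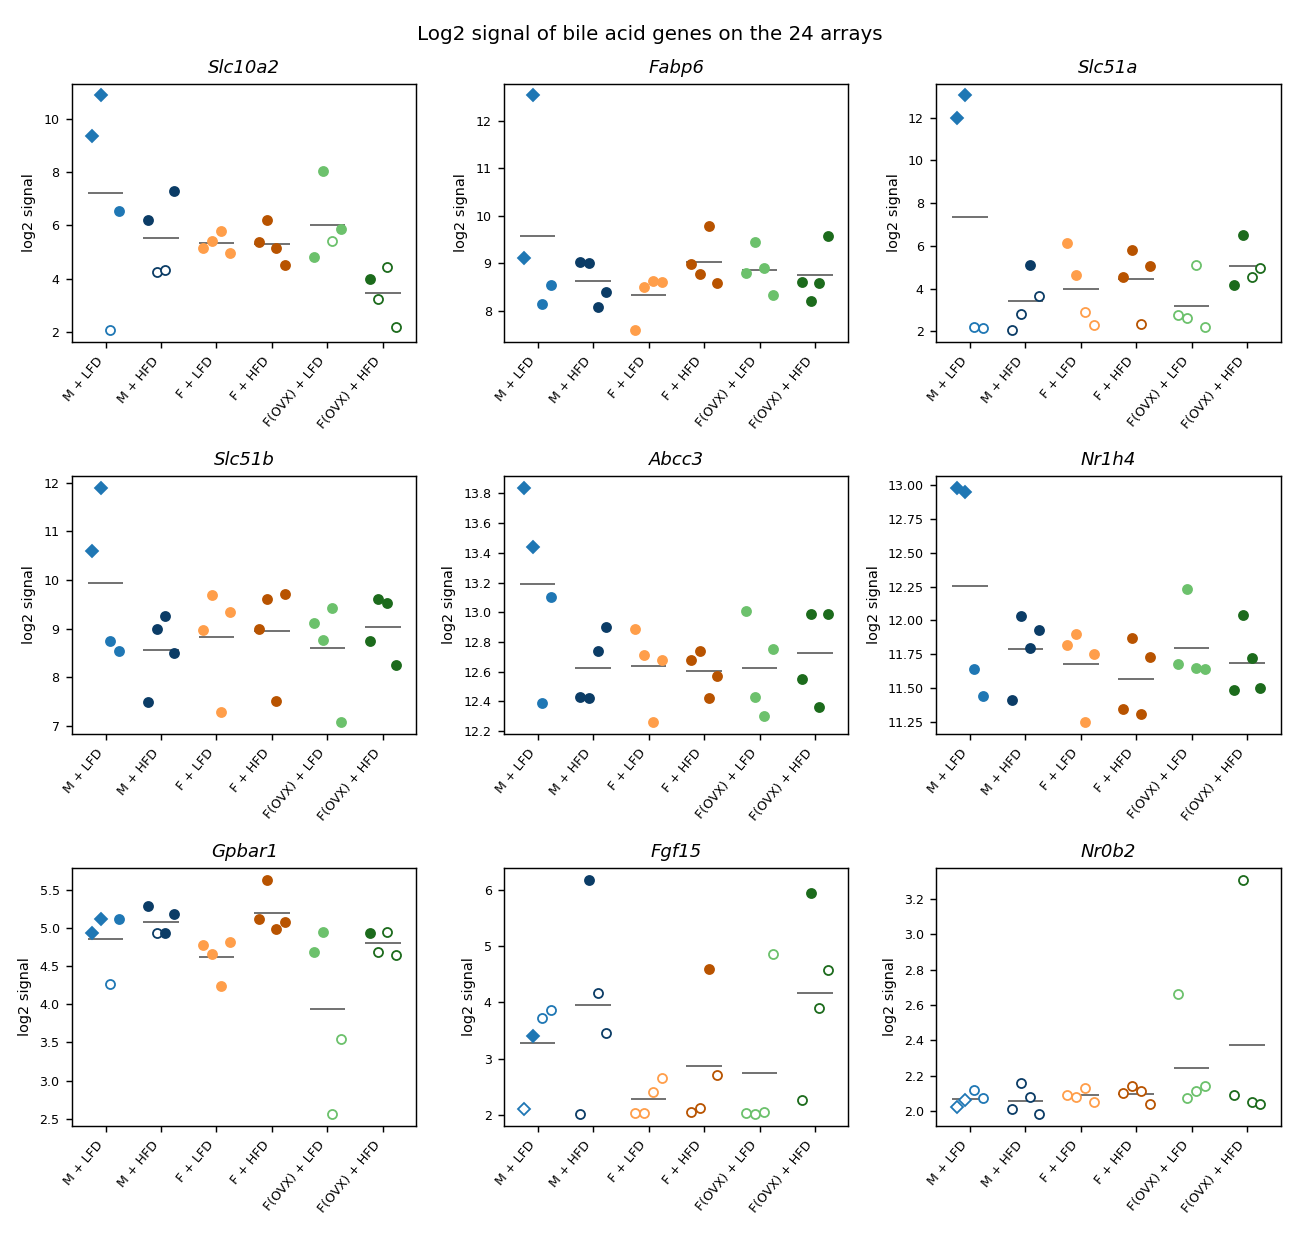
Log2 signal (y axis) of the 9 genes, brightest probe, on each array of the 6 groups (x axis). Filled symbols are well above background, open symbols are not, diamonds are M + LFD replicates 1 and 2, and the line is the mean of 4 arrays. The diamonds are the 2 highest arrays for Slc10a2, Slc51a, Slc51b, Abcc3 and Nr1h4.

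Nr1h4, the receptor FXR, was well above background on all 24 arrays. The log2 signal of replicates 1 to 4 was 12.98, 12.95, 11.64 and 11.44 in M + LFD and 11.41, 12.03, 11.8 and 11.93 in M + HFD. Only M + LFD replicates 1 and 2 stood above the M + HFD arrays, and the other 2 lay within their range. Group means ran from 12.25 ± 0.83 (SD, n = 4) in M + LFD, through 11.8 ± 0.28 in F(OVX) + LFD, 11.79 ± 0.27 in M + HFD, 11.69 ± 0.26 in F(OVX) + HFD and 11.68 ± 0.29 in F + LFD, to 11.57 ± 0.28 in F + HFD, and every pair of neighbouring groups in that order overlapped. On the other 22 arrays the signal stayed between 11.25 and 12.23.

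Both signalling targets of FXR, the hormone Fgf15 and the corepressor Nr0b2, were near the floor of the array. Nr0b2 was well above background on none of the 24 arrays, with log2 signals of 1.98 to 3.31. Fgf15 was well above background on 4 arrays, at 3.41 in M + LFD replicate 2, 6.18 in M + HFD replicate 2, 4.59 in F + HFD replicate 3 and 5.94 in F(OVX) + HFD replicate 2. These 4 arrays fell in 4 different groups, and no group was tested for either gene.

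Slc10a2, the apical uptake carrier, was well above background on 17 arrays. Its log2 signal was 9.37, 10.88, 2.08 and 6.55 in M + LFD replicates 1 to 4, and 6.22, 4.26, 4.32 and 7.29 in M + HFD. The 4 M + LFD values ran from the highest to the lowest of all arrays, and replicate 3 was not well above background. In intact females it was steady, at 5.16, 5.4, 5.8 and 4.95 on LFD and 5.39, 6.2, 5.16 and 4.5 on HFD, with a change on HFD of -0.02 (SE 0.35, limma adjusted p = 0.999). Replicates of ovariectomized females gave 4.82, 8.03, 5.43 and 5.85 on LFD and 4.01, 3.23, 4.44 and 2.21 on HFD. All 4 LFD arrays lay above all 4 HFD arrays, although 3 of the LFD arrays and only 1 of the HFD arrays were well above background. The means were 6.03 on LFD and 3.47 on HFD, and with most HFD arrays under background the size of the difference was not measured. The two-sided exact permutation test, which compares signals partly under background, gave p = 0.0286, the smallest that 70 assignments allow. The gene was not tested in the fit across genes, since neither group had 4 arrays above background, and 2.3% of the genes tested in ovariectomized females had arrays that did not overlap between the diets. Without F(OVX) + LFD replicate 3 Slc10a2 entered that fit and was called at -2.76 (SE 0.8, limma adjusted p = 0.832). It passed the filter there through the LFD group alone. Only 1 of the HFD arrays was well above background there too, so the size of this change was not measured either. Slc10a2 was not tested in males either, and entered the male test only when M + LFD replicate 3, its array under background, was left out. It was then called at -3.41 (SE 1.13, limma adjusted p = 0.811), with M + LFD replicates 1 and 2 kept. Here it passed the filter through M + LFD alone. Only 2 of the 4 M + HFD arrays were well above background, so the size of this change was likewise not measured.

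Some markers of other cells were called between the diets of the ovariectomized females, where 2.19% of all 19211 genes tested were called. Of 11 small intestinal enterocyte markers, 4 were tested and 2 were called higher on HFD, the alkaline phosphatase Alpi by 1.82 (SE 0.53) and Fabp2 by 1.9 (SE 0.73), and the mean log2 signal of the scored enterocyte markers was 8.32 to 9.08 on LFD and 9.33 to 10.24 on HFD. Of 4 smooth muscle markers 3 were called higher, Des by 1.25 (SE 0.49), Cnn1 by 1.12 (SE 0.4) and Actg2 by 0.92 (SE 0.34), with scores of 10.28 to 11.83 on LFD and 11.73 to 13.19 on HFD. Of 6 macrophage markers Fcgr1 was called lower (-0.68, SE 0.28), as was 1 of 4 tested anterior genes, Hoxa5 (-0.74, SE 0.2), and each of these 7 genes had a limma adjusted p of 1. All 6 colonocyte markers and 5 of 6 epithelium markers had higher means on HFD, with none called. The part of these markers in the values of Slc10a2 and Slc51a in ovariectomized females was not tested.

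Fabp6, which carries bile acids inside the enterocyte, was well above background on all arrays. In M + LFD its log2 signal was 9.11, 12.53, 8.13 and 8.54, and in M + HFD it was 9.03, 8.99, 8.07 and 8.38. Replicate 2 alone was 3.92 above the median of the other 22 arrays, while replicate 1 was 0.5 above it. In intact females the signal was 7.59, 8.5, 8.62 and 8.6 on LFD and 8.97, 8.77, 9.77 and 8.57 on HFD. Here 3 of the 4 HFD arrays lay above every LFD array, with a change of 0.69 (SE 0.32, limma adjusted p = 0.991, exact permutation p = 0.0857). With the replicate number as a block, which takes same-numbered arrays as pairs, Fabp6 was called at the same change (limma adjusted p = 0.666). The labels name no such pairs. Leaving out 1 array moved the change from 0.44, when replicate 1 of F + LFD or replicate 3 of F + HFD was left out, to 0.84, without F + HFD replicate 4, where alone it was called. Ovariectomized females had 8.78, 9.44, 8.89 and 8.32 on LFD and 8.61, 8.21, 8.58 and 9.56 on HFD, which overlapped, with a change of -0.12 (SE 0.32).

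The release carrier was measured through both of its subunits. Slc51a was well above background on 10 of 24 arrays. Its log2 signal was 11.97 and 13.04 in M + LFD replicates 1 and 2, and 2.21 and 2.17 in replicates 3 and 4 in the same group. In M + HFD it was 2.07, 2.81, 5.09 and 3.68, with only replicate 3 above background, and the highest value on any of the other 22 arrays was 6.51. In ovariectomized females the LFD arrays (2.77, 2.65, 5.09 and 2.19) were never well above background, and 2 of the 4 HFD arrays (4.19, 6.51, 4.57 and 4.95) were. The means were 3.18 on LFD and 5.06 on HFD, and the arrays of the diets overlapped. With no LFD array and only 2 HFD arrays well above background, the size of the difference was not measured. The exact permutation p was 0.114, and the gene was tested in no diet comparison.

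Slc51b, the other subunit, was well above background on every array. Its log2 signal was 10.59, 11.9, 8.74 and 8.55 in M + LFD and 7.49, 9, 9.26 and 8.51 in M + HFD. M + LFD replicates 1 and 2 stood above the other 22 arrays, of which the highest was at 9.72, and replicates 3 and 4 lay within the HFD range. The male diet change of -1.38 (SE 0.75, exact permutation p = 0.229) was -0.08 (SE 0.48) without the 2 replicates. In intact females the signal was 8.98, 9.7, 7.28 and 9.34 on LFD and 9, 9.62, 7.51 and 9.72 on HFD, a change of 0.14 (SE 0.63). Ovariectomized females had 9.12, 8.77, 9.43 and 7.08 on LFD and 8.74, 9.6, 9.53 and 8.26 on HFD, a change of 0.43 (SE 0.52). The diets overlapped in both, and replicate 3 was the lowest array of either diet in intact females.

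Abcc3, the basolateral pump, was well above background on all arrays by both probes. By the brighter probe the log2 signal was 13.84, 13.44, 12.39 and 13.1 in M + LFD and 12.43, 12.42, 12.74 and 12.9 in M + HFD. By the dimmer probe it was 7.9, 8.17, 6.91 and 7.53 in M + LFD and 6.95, 6.69, 6.7 and 6.34 in M + HFD. On the dimmer probe 3 of the 4 LFD arrays lay above every HFD array, and replicate 3 was the exception. The change was -0.57 (SE 0.3, limma adjusted p = 0.824) by the brighter probe, which was not called, and -0.96 (SE 0.27, limma adjusted p = 0.806) by the dimmer one, which passed the thresholds before adjustment. Neither probe was called without M + LFD replicates 1 and 2, at -0.12 (SE 0.27) and -0.55 (SE 0.26), an alternative chosen after seeing the data. The 2 probes differed in intact females as well, with changes of -0.04 (SE 0.16) and 0.74 (SE 0.51), so the measured direction there depended on the probe. The brighter probe lay between 12.26 and 13.01 in the 4 groups of females, with a change of 0.1 (SE 0.22) in ovariectomized ones.

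**Figure D2:**
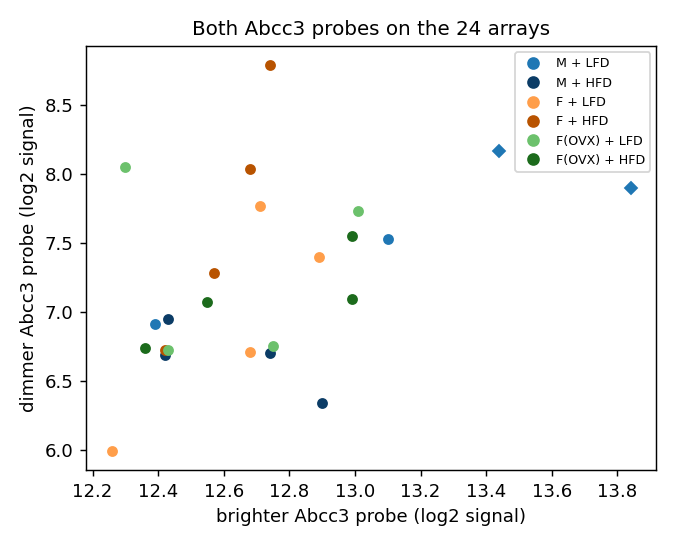
Log2 signal of Abcc3 by its brighter probe (x axis) and its dimmer probe (y axis), 1 symbol per array, colored by group, with M + LFD replicates 1 and 2 as diamonds. The diamonds are high on both axes, at 13.84 and 13.44 on the x axis, while F + HFD replicate 2 has the highest dimmer-probe signal, 8.79, at an ordinary brighter-probe signal of 12.74.

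Gpbar1, the membrane receptor TGR5, was dim, with 17 of 24 arrays well above background. In intact females its log2 signal was 4.77, 4.66, 4.24 and 4.81 on LFD and 5.11, 5.63, 4.98 and 5.08 on HFD, well above background on all 8. Every HFD array lay above every LFD array, a separation that 1.9% of the genes tested in intact females had. The change of 0.58 (SE 0.19, limma adjusted p = 0.991, exact permutation p = 0.0286) was just under the fold threshold. It passed that threshold, at 0.6 to 0.65, when F + LFD replicate 1, 2 or 4 or F + HFD replicate 1, 3 or 4 was left out, and was 0.45 and 0.44, uncalled, when replicate 3 of F + LFD or replicate 2 of F + HFD was left out. The size depended on the background correction, with a change of 0.17 under normexp. Before normalization the intensities of the diets overlapped, at 35.5, 18.3, 29.3 and 35.9 on LFD and 25.8, 17.7, 38.5 and 30.9 on HFD. F + HFD replicate 2, the highest array after normalization and the lowest of these 8 before it, had 43.6% of its probes above background. The 6 markers of macrophages, which also express the receptor, had a mean log2 signal of 9.99 to 11.17 on LFD and 9.9 to 10.64 on HFD with none called, and their part in the result was not tested. In M + HFD the signal was 5.28, 4.93, 4.93 and 5.18 and in M + LFD 4.93, 5.11, 4.27 and 5.11, which overlapped. In ovariectomized females it was 4.69, 4.95, 2.56 and 3.55 on LFD and 4.93, 4.69, 4.94 and 4.64 on HFD, with 2 LFD arrays (replicates 1 and 2) and 1 HFD array (replicate 1) above background. When the 6 groups were ordered by their mean for each of the 9 genes, neighbouring groups overlapped in all cases but 1, Slc10a2 in F + HFD (5.31 ± 0.7, SD, n = 4) and F(OVX) + HFD (3.47 ± 0.98).

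Whether HFD changed these genes in each kind of mouse was tested with limma, and a gene was called where it passed both thresholds given in the methods, 1.5-fold and 0.05 for the p-value before adjustment. Of the 9 genes, 4 could be tested in males, 6 in intact females and 4 in ovariectomized females, since the filter asked for 4 arrays above background on at least 1 of the diets. None was called in males, where 4.3% of 20516 genes were, or in intact females (1.2% of 22085) or ovariectomized females (2.19% of 19211). At an unadjusted p under 0.05 regardless of fold there were 0 of 4, 1 of 6 (Gpbar1) and 0 of 4 members, beside 6.1%, 2.91% and 3.69% of all genes tested, and the methods' t-test called none of the 4, 6 and 4. No gene on the array passed a Benjamini-Hochberg adjusted p of 0.05 in any of the 3 comparisons.

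All 4 genes tested in males had lower means on HFD, with a median change of -0.76 against 0.01 over all genes. For Nr1h4 the change was -0.46 (SE 0.38, adjusted p = 0.895) and for Fabp6 -0.96 (SE 0.87, adjusted p = 0.912). Without M + LFD replicates 1 and 2 the median was 0.09 and none of the 4 was called, with changes of 0.25 (SE 0.22) for Nr1h4, 0.28 (SE 0.33) for Fabp6 and -0.12 (SE 0.26) for Abcc3. The male direction of Nr1h4 and Fabp6 thus turned when these 2 arrays were left out. With the anterior Hox score as a covariate the changes were 0.19 and 0.1. That score was 8.42 and 8.06 in these 2 arrays, 5.99 and 6.31 in M + LFD replicates 3 and 4, and 5.2 to 6.32 in M + HFD. The covariate thus mostly set the same 2 arrays apart and was not a separate test. Leaving out 1 of the other M + LFD arrays instead keeps replicates 1 and 2. It gave calls of Abcc3 at -0.84 and Slc10a2 at -3.41 without replicate 3, and of Slc51b at -1.85 without replicate 4. The Slc10a2 value rested partly on signals under background, as given above.

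**Figure D3:**
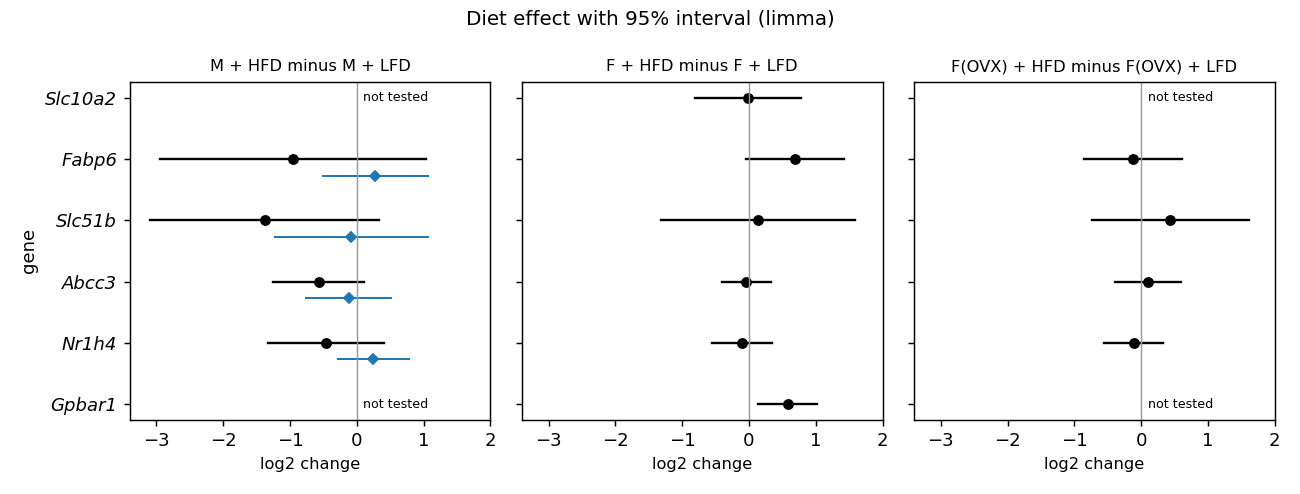
Change in log2 signal on HFD against LFD (x axis) for 6 genes (y axis) in males, intact females and ovariectomized females, with the 95% interval of the limma fit, black circles for all 8 arrays and blue diamonds for males without M + LFD replicates 1 and 2. Among the genes tested on all 8 arrays, every interval but that of Gpbar1 in intact females (0.14 to 1.02) holds 0, and leaving out the 2 replicates brings the male changes of Slc51b from -1.38 to -0.08.

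The diet effects were then compared between kinds of mice in 1 fit of all 24 arrays. The male effect minus the intact female effect was below 0 for all 6 genes tested and called for none, where 2.95% of 22365 genes were called (at an unadjusted p under 0.05, 0 members and 3.52% of genes). It was -1.64 (SE 0.89) for Fabp6 and -1.52 (SE 1.01) for Slc51b, both at a limma adjusted p of 0.975. Without M + LFD replicates 1 and 2 the median of the 6 went from -1.03 to -0.14, with -0.4 for Fabp6, -0.22 for Slc51b, -0.09 for Abcc3, 0.36 for Nr1h4 and 1.22 for Slc10a2, and none was called (limma adjusted p = 0.999 for each). With both replicates kept and M + LFD replicate 3 left out, the difference was called for Slc10a2 (-3.39), Fabp6 (-2.13) and Abcc3 (-0.8), and with M + LFD replicate 4 left out for Fabp6 (-1.99). The male effect minus that of ovariectomized females was called for none of 4 genes, where 6.33% of 20765 were (at an unadjusted p under 0.05, 0 members and 7.74% of genes). It was -1.81 (SE 1, limma adjusted p = 0.722) for Slc51b, which was called with the replicate block and, at -2.22 and -2.28, without M + LFD replicate 3 or 4. For Abcc3 it was -0.67 (SE 0.34, limma adjusted p = 0.682), and it was called at -0.76 to -0.94 without M + LFD replicate 3, M + HFD replicate 4, F(OVX) + LFD replicate 1 or F(OVX) + HFD replicate 3. The median of the 4 went from -0.75 to 0.07 without M + LFD replicates 1 and 2, with -0.51 for Slc51b, -0.22 for Abcc3, 0.36 for Nr1h4 and 0.4 for Fabp6, and none was called. Ovariectomized minus intact females gave no call among 6 genes, where 1.5% of 22133 were called (at an unadjusted p under 0.05, 0 members and 2.12% of genes), and the 95% interval for Slc10a2 ran from -6.17 to 1.09. Slc10a2 was called there, at the same -2.54, without M + LFD replicate 3, an array of neither group, and its signal was partly under background, as given above. These comparisons share the arrays of a group and are not independent of each other.

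Averaged over the 3 kinds of mice, none of 6 genes was called, where 0.773% of 22383 genes were (at an unadjusted p under 0.05, 1 member, Gpbar1, and 4.21% of genes). Gpbar1 was higher on HFD by 0.56 (SE 0.2), under the fold threshold, and the change of Slc10a2 was -1.42 (SE 0.71), both at a limma adjusted p of 0.984. Slc10a2 was called at -2 (limma adjusted p = 0.874) without M + LFD replicate 3, its lowest array, at -1.62 without M + HFD replicate 4 and at -1.56 without F(OVX) + LFD replicate 1. It was -0.46 and not called without M + LFD replicates 1 and 2, and Slc51b, Fabp6, Abcc3 and Nr1h4 were at 0.16, 0.28, -0.02 and 0.01. Gpbar1 was called at 0.61 without these 2 replicates, and at 0.64 and 0.67 without F(OVX) + LFD replicate 1 or 2, the arrays of that group that were above background. It was 0.4 without F(OVX) + LFD replicate 3 and 0.12 with normexp background correction, uncalled in both.

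Sex and surgery were compared over both diets, although each slide held 1 kind of mouse, so that slide and kind of mouse cannot be told apart. Likewise LFD arrays lay in 1 row of the slides and HFD arrays in the other, and row and diet cannot be told apart. Males against intact females gave no call among 6 genes, where 5.56% of 22365 were called (at an unadjusted p under 0.05, 0 members and 18% of genes). All 6 had higher means in males, except that Gpbar1 did not under normexp background correction, with a median of 0.38 against -0.01 over all genes, and Nr1h4 had a difference of 0.4 (SE 0.2, adjusted p = 0.304). The median was -0.11 without M + LFD replicates 1 and 2. Slc10a2 (1.05, SE 0.87) was called at 1.91 without M + LFD replicate 3, and was at -0.4, uncalled, without replicates 1 and 2. Ovariectomized against intact females gave no call among 6 genes, where 2.06% of 22133 were (at an unadjusted p under 0.05, 1 member, Gpbar1, and 6.16% of genes). The difference for Gpbar1 was -0.54 (SE 0.25, limma adjusted p = 0.795), and it entered the test through the intact groups, since only 3 of the 8 arrays of ovariectomized females were above background. It was -0.31 without F(OVX) + LFD replicate 3 and -0.07 with normexp background correction. It was called at -0.6 without F + LFD replicate 3, and at -0.67 and -0.71 without F(OVX) + LFD replicate 1 or 2, which left 1 LFD array of that group above background.

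Of 43 other genes of bile acid biology in 4 lists, 42 had a probe. Among 28 tested in males 2 rose and none fell, where 4.3% of all genes tested were called, with a median of -0.08 against 0.01 over all genes. S1pr2, a receptor for conjugated bile acids, rose from 5.33, 5.36, 5.44 and 5.57 in M + LFD to 6.06, 6.64, 5.45 and 5.93 in M + HFD, a change of 0.6 (SE 0.24, limma adjusted p = 0.8). Klb, the coreceptor through which Fgf15 acts, rose by 1.61 (SE 0.69, limma adjusted p = 0.801), with signals of 4.5, 4.59, 2.34 and 5.94 against 6.34, 5.89, 5.05 and 6.54. The diets overlapped for both genes, and the lowest Klb array, M + LFD replicate 3, was not well above background. Without M + LFD replicates 1 and 2 the changes were 0.52 and 1.82, and 0 of the 28 genes were called, beside 4.22% of 20588.

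None of 28 genes was called in intact females, beside 1.2% of all genes tested. In ovariectomized females 1 of 25 was, beside 2.19% of all genes tested. Slc10a6, a carrier of sulfated steroids related to Slc10a2, fell from 5.75, 6.39, 6.31 and 6.41 on LFD to 5.67, 5.13, 5.18 and 5.61 on HFD, every LFD array above every HFD array, with a change of -0.82 (SE 0.21, limma adjusted p = 1). Such a separation was seen for 2.3% of the genes tested in ovariectomized females. Slc10a6 was also lower in males than in intact females by a difference of -0.81 (SE 0.22, limma adjusted p = 0.051). In that comparison 5.56% of 22365 genes were called. There 2 others of 29 were higher, the phospholipid exporter Abcb4 by 1 (SE 0.36, adjusted p = 0.144) and the drug exporter Abcb1a by 0.9 (SE 0.38, adjusted p = 0.211). Without M + LFD replicates 1 and 2 only Slc10a6 of these 3 was called, beside 4.64% of 22413 genes.

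The diet effect of males differed from that of ovariectomized females for 5 of 28 genes, beside 6.33% of the 20765 tested. Abcg5 and Abcg8, which together form the sterol exporter, differed by 3.36 (SE 1.56, adjusted p = 0.63) and 1.58 (SE 0.7, adjusted p = 0.607), and Slc10a6 by 1.09 (SE 0.44, adjusted p = 0.552). The lipid sensor Ppara differed by -1.65 (SE 0.75, adjusted p = 0.619) and Hsd3b7, an enzyme of bile acid synthesis, by -0.61 (SE 0.2, adjusted p = 0.529). Without M + LFD replicates 1 and 2 only Abcg8 of the 28 was called, beside 4.96% of 20828. For ovariectomized minus intact females 1 of 28 was called, beside 1.5% of all genes tested, the oxysterol receptor Nr1h3 at -0.69 (SE 0.31, limma adjusted p = 1). Averaged over the mice none of 29 was, beside 0.773% of all genes tested.

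A posterior score, the mean log2 signal of the posterior genes Hoxa13, Hoxb13 and Hoxd13, stood in for position along the colon, which was not recorded. The members were set against it over the 22 arrays other than M + LFD replicates 1 and 2. Slc51b signal was lower at higher scores, with r = -0.78 and rho = -0.66 (permutation test, p = 9e-05 and p = 0.00111, adjusted to 0.00243 and 0.03 over 27 relations). Without the 2 arrays farthest from the median score r was -0.69. Within males r was -0.77 over 6 arrays, within intact females -0.84 over 8, and within ovariectomized females -0.71 over 8. The lowest Slc51b signals, 7.49 in M + HFD replicate 1, 7.28 in F + LFD replicate 3, 7.51 in F + HFD replicate 3 and 7.08 in F(OVX) + LFD replicate 4, came with scores of 11.5, 11.11, 11.14 and 10.98. These 4 arrays were spread over 4 groups and both diets, and F(OVX) + LFD replicate 2, at a score of 11.12 and a Slc51b signal of 8.77, did not follow them. The same 4 arrays, in that order, had low scores of the enterocyte markers (8.08, 8.13, 7.74 and 8.32). Their epithelium scores were 13.85, 13.55, 13.44 and 13.87. For F(OVX) + LFD replicate 2 these scores were 8.84 and 13.77. Position and the cells sampled were not separated, and the part of either in this relation was not tested. The posterior score varied mainly through Hoxd13, which lay between 2.69 and 11.38 on the 22 arrays. With the score of 6 anterior Hox genes, Slc51b had r = 0.01 and rho = 0.05 on the same arrays.

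The posterior list had 6 genes with a probe, of which these 3 were well above background on at least 12 arrays, as scoring required. Of the 27 relations computed, between members and with the posterior and anterior scores, 1 passed adjustment by both measures. Slc10a2 and Fabp6 ran the other way along the posterior score, with r = 0.55 (permutation adjusted p = 0.0643) and r = 0.51 (permutation adjusted p = 0.0992), and missed the threshold. For ovariectomized females the posterior score was 8.98 to 11.12 on LFD and 8.77 to 9.43 on HFD, beside the Slc10a2 difference given above, and its part in that difference was not tested. Nr1h4 and Slc51b had r = 0.57 (permutation adjusted p = 0.0643). Slc10a2 and Slc51b had r = -0.2.

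**Figure D4:**
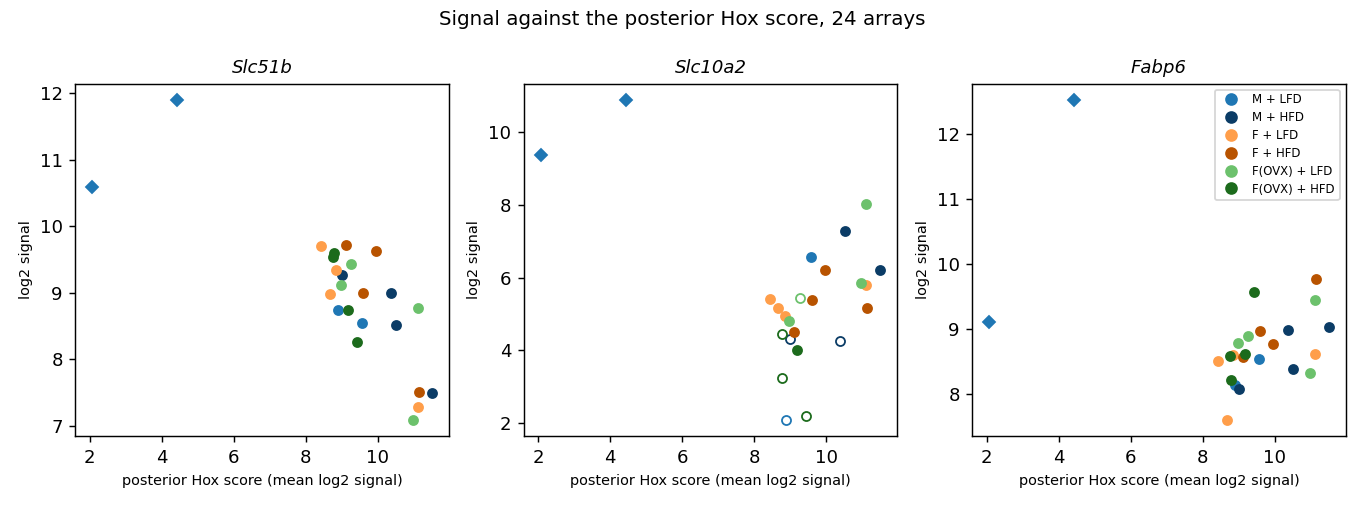
Log2 signal (y axis) of Slc51b, Slc10a2 and Fabp6 against the mean log2 signal of Hoxa13, Hoxb13 and Hoxd13 (x axis) on the 24 arrays, colored by group, with open symbols not well above background and diamonds for M + LFD replicates 1 and 2. Apart from the diamonds, Slc51b falls toward high scores with r = -0.78, while Slc10a2 and Fabp6 have r of 0.55 and 0.51.

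The genes whose pattern over the 24 arrays was most like each member were named by Pearson r among 14414 genes well above background on at least 12 arrays, as a description, since all share the same arrays. For Slc51b they were Sct (0.91), Btnl6 (0.9) and Prap1 (0.89), and r for Sct was 0.87 without the 2 arrays farthest from the median of Slc51b. For Nr1h4 they were Adtrp (0.88), Sptlc2 (0.87) and 4931406C07Rik (0.87), and for Abcc3 the carbonic anhydrase Car1 (0.88), Abcd3 (0.86) and Mpst (0.84). Slc10a2 was nearest to Cyp3a13, Nudt4 and Plscr4 (each 0.81), and Fabp6 to Naaladl1 (0.77), the chemokine Ccl25 (0.74) and Cd7 (0.73). Leaving out M + LFD replicates 1 and 2 lowered r to 0.75 for Nr1h4 with Adtrp, 0.69 for Abcc3 with Car1 and 0.63 for Slc10a2 with Cyp3a13, and r for Fabp6 with Naaladl1 was 0.65 without M + LFD replicate 2 and F + HFD replicate 3. Over the 22 arrays other than M + LFD replicates 1 and 2 the nearest genes were mostly others. They were Slc3a1 (0.89), Sct (0.89) and Fam3b (0.87) for Slc51b, Slc35b3 (0.77), Adtrp (0.75) and Eif4ebp3 (0.71) for Nr1h4, and Abcd3 (0.75), Ptprd (0.73) and Fcsk (0.72) for Abcc3. For Slc10a2 they were Nr1i3 (0.84), Acyp2 (0.76) and Ubtd2 (0.76), and for Fabp6 Smpx (0.84), Nhlrc1 (0.77) and Cep63 (0.76). For Gpbar1 the nearest genes over the 24 arrays were Olfr553 (0.83), Serpina3b (0.83) and Pld6 (0.82), and r with Olfr553 was 0.46 without F(OVX) + LFD replicates 3 and 4. Over the 22 arrays they were the same 3, Pld6 (0.84), Olfr553 (0.83) and Serpina3b (0.83).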

How the data were processed

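The authors hybridized each colon RNA to a 1-color Agilent array and used Agilent Feature Extraction 11.0.1.1 to read the spots. Values as deposited are linear spot intensities corrected for background by the scanner software, beside flags of 0 or 1 for spots well above background. They were log2-transformed and quantile-normalized over 24 arrays after control spots and outlier spots were left out. Of 56605 probes, 32994 were named through accessions in the RefSeq table of GRCm38.p6; the array annotation uses another build, so only the RefSeq promoter windows have coordinates. A gene was read by its brightest probe and tested where 4 of 4 arrays of any compared group had it above background, with limma 3.58.1 in R 4.3.3, each diet comparison on its own 8 arrays and the other contrasts on all 24, and p-values adjusted by Benjamini-Hochberg over all genes tested. Single genes were compared by an exact permutation test over 70 assignments. Relations used 100000 resamples. Scripts were tested on simulated data. Precision was limited by 4 arrays per group. Groups came from the sample labels. Same-numbered arrays were blocked as an alternative. Their deviations from the group means correlated at 0.26 to 0.58 in intact females, at -0.26 to 0.01 in males and at -0.09 to 0.33 in ovariectomized females. The labels name no pairs, and arrays with different numbers were not compared in this way, so whether the numbers pair the arrays is not known. All 9 members were named, with called genes of the other lists and the 3 genes most like each member. Members and lists were chosen with earlier results of these data known. Other scalings, background correction, filters, probes, covariates and left-out arrays were tried.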

Additional observations from a re-analysis of the deposited data

Results flagged for a closer look

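Of 51 sets of 4 arrays examined, 2 held an array far from the other 3, and chance flags about 1 in 20. Nr1h4 in F(OVX) + LFD replicate 2 was at a log2 signal of 12.23, above 11.64 to 11.68 in the other 3. Fabp6 in F + LFD replicate 1 was at 7.59, below 8.5 to 8.62 in the other 3, and without this array the diet change of Fabp6 in intact females was 0.44 in place of 0.69.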

How the results depend on the processing

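Of 1308 values of single members recomputed under the alternatives, 1271 stayed on the same side of the threshold, and 37 passed it that had not before. No member was called to begin with, so that no call could be lost, and the sign of 66 uncalled values changed. The number of members called was 0 in each comparison. It became 1 by the mean of all probes in males (Abcc3 at -0.76) and in the male against female effect (Abcc3 at -1.11). It became 2 without the filter on background in ovariectomized females (Slc10a2 and Slc51a) and 1 in males against ovariectomized females (Slc51a, -5.81). With normexp background correction it was 1 in males against ovariectomized females (Abcc3, -0.67) and 1 in males against females (Slc10a2, 0.97). For the averaged diet effect it was 1 with 75th percentile scaling (Slc10a2, -1.45) and 1 without M + LFD replicates 1 and 2 together (Gpbar1, 0.61). The replicate block gave 1 in intact females (Fabp6, 0.69) and 1 in males against ovariectomized females (Slc51b, -1.81), and changed no other member count. It moved the calls over all genes in intact females from 264 to 587. Leaving out 1 array at a time gave 0 to 2 called members in males, 0 to 2 in intact females, 0 to 1 in ovariectomized females, 0 to 3 for males against females, 0 to 2 for males against ovariectomized females, 0 to 1 for ovariectomized against intact females, 0 to 2 averaged over the mice, 0 to 1 for males against females over diets and 0 to 1 for ovariectomized against intact females over diets. The cause of these changes was not tested. The relation of Slc51b to the posterior score had r = -0.74 with 75th percentile scaling and -0.74 with normexp, both alternatives chosen after seeing the data. All Nr0b2 values and most Fgf15 and Slc51a values were not well above background and so gave no measured level.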

Other observations

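The hepatic uptake carrier Slc10a1, named after its values were seen, had 2 probes that differed on every array. One, for NM_011387, was between 16.43 and 16.87 on all 24 arrays, and the other, for NM_001177561, was well above background on 1 array, with log2 signals of 2.07 to 6.02.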
